A study of Mus musculus with 18 samples.

Results

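The insulin-like growth factor (IGF) genes described here are the ligands Igf1 and Igf2, the binding proteins Igfbp2, Igfbp3, Igfbp4 and Igfbp5, and the RNA binders Igf2bp1, Igf2bp2 and Igf2bp3. These 9 genes were chosen by name from the 54276 gene names that both deposited tables share; the rule is the name alone, and earlier results of these data were known when the set was put together. The RNA came from mouse oligodendrocyte progenitor cells (OPCs) differentiated from epiblast stem cells and kept in medium with N2max, B27, Fgf2 and Pdgfa. The cells of all 6 groups had passed through CRISPR, with either a Vhl edit or a control; the edited site, the guides, and whether a line was a clone or a pool are not stated by the labels. The groups were Vhl cells with 300 nM AZD8330 for 14 h, control cells with 300 nM AZD8330 for 14 h, Vhl cells with DMSO for 14 h, control cells with DMSO for 14 h, untreated Vhl cells and untreated control cells, with 3 libraries each, lettered A to C. AZD8330 inhibits the kinases MEK1 and MEK2, and DMSO is its solvent. Vhl encodes the ubiquitin ligase subunit that marks hypoxia-inducible factor (HIF) for degradation in the presence of oxygen. Nothing in the labels says whether the 3 libraries of a group had separate cultures behind them; p-values therefore cover the spread among libraries, and this spread may be technical.

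IGF-1 and IGF-2 act through the IGF-1 receptor, which drives survival, growth and differentiation of oligodendrocyte lineage cells. IGF binding proteins are secreted, hold most IGF outside cells, and can lower or prolong its action; proteases cut some of them and thereby release the ligand. The Igf2bp proteins carry the name of an early target, the Igf2 messenger RNA, and control the stability, transport and translation of many transcripts in embryonic cells and tumours.

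The sequences before the start sites of 4 members are given because the results turn on these genes: Igfbp5 and Igfbp4 had the largest changes with AZD8330, and Igf2bp3 and Igf2bp2 were lower in Vhl cells. Each line holds the 250 bases before the RefSeq start site in build GRCm38.p6, read 5′ to 3′ on the strand of the gene. Capitals mark the HIF core motif, ACGTG or GCGTG, searched on both strands.
Igfbp5, chr1:72874866-72875115, minus strand: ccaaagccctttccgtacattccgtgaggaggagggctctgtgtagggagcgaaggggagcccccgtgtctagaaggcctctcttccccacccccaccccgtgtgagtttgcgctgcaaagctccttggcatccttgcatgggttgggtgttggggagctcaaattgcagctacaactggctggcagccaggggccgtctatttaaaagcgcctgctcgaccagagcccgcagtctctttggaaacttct
Igfbp4, chr11:99040994-99041243, plus strand: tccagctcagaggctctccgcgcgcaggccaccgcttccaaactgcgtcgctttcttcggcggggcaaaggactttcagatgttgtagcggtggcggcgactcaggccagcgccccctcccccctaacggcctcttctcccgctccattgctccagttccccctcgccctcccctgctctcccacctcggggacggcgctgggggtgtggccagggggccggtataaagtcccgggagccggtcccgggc
Igf2bp3, chr6:49214955-49215204, minus strand: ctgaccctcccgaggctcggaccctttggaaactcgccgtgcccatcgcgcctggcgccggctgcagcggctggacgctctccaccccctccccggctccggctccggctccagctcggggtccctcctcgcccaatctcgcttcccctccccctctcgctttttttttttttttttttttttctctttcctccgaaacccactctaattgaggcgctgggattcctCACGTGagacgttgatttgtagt
Igf2bp2, chr16:22163300-22163549, minus strand: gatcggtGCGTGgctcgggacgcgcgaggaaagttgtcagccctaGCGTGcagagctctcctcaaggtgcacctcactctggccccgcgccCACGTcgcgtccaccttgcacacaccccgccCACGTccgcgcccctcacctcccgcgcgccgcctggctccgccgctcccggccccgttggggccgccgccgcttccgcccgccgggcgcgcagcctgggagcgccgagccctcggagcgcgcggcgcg

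The Igf2bp2 window held 4 matches to the HIF core motif. The Igf2bp3 window held 2, which overlap in a single palindrome 23 and 22 bases before the start. The Igfbp5 and Igfbp4 windows held none. Windows of members not printed held matches too. Igfbp2 had 4 at start site 1 and none at start site 2, and Igfbp3 had 2. Neither gene was called in Vhl against control cells with DMSO, and Igfbp2 was higher in Vhl cells with AZD8330. A link between motif matches and the changes in Vhl cells was not tested. Igf1 had 1, and Igf2 had 1 at start site 3 and none at its other sites. Of 32851 RefSeq windows of the same length, 38.6% held at least 1 match. The AP-1 motif, TGACTCA or TGAGTCA, and the cell-cycle homology region motif, TTTGAA, were also searched on both strands. They had no match in the 4 printed windows and occurred in 4.46% and 16.0% of all windows. The Igfbp2 window at start site 2 held 1 match to each, and the Igf1 window held 1 to TTTGAA.

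Library totals were 14594148 to 21160250 estimated counts in the untreated table and 12391077 to 16349676 in the drug table. Vhl itself read 91.8 to 104 CPM (counts scaled to a common library total) in Vhl cells against 136 to 139 CPM in control cells with AZD8330, and 89.8 to 93.9 against 102 to 109 CPM with DMSO. In untreated cells it read 73.9 to 89.95 CPM in Vhl cells and 117 to 125 CPM in control cells. The 2 untreated A libraries stood apart from the others of their group: the lineage factor Sox10 read 326 CPM in Vhl library A against 15.3 and 16.0 CPM in Vhl libraries B and C, and 526 CPM in control library A against 87.8 and 87.5 CPM in control libraries B and C. All 8 OPC markers were present in all 6 groups, with summed levels of 7971 to 14450 CPM. Of 5 pluripotency or epiblast markers, Pou5f1 and Zfp42 had no counts in any library and Nanog, Fgf5 and Esrrb had counts in every group. The 5 summed to 4.76 to 6.19 CPM in Vhl and 5.88 to 7.31 CPM in control libraries with AZD8330, to 15.8 to 19.98 CPM in Vhl and 19.2 to 23.7 CPM in control libraries with DMSO, and to 4.10 to 7.12 CPM untreated. The microglial marker Trem2 had no counts in any library. A bulk library cannot tell fewer cells of a type from less RNA per cell.

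Each table was tested on its own with edgeR's quasi-likelihood test, for genes averaging 1 CPM or more. Igfbp2 to Igfbp5 and the 3 Igf2bp genes passed this filter in both tables, and Igf1 and Igf2 passed in neither. With DMSO, 1 tested member rose in Vhl cells and 2 fell; 32.3% of all genes were called, 13.8% up and 18.5% down. With AZD8330, 2 members rose in Vhl cells and 3 fell; of all genes 30.0% were called, 16.0% up and 14.0% down. AZD8330 raised 1 member and lowered 4 in Vhl cells, where 51.4% of all genes were called, 25.8% up and 25.6% down. In control cells it also raised 1 and lowered 4, where 60.8% of all genes were called, 29.1% up and 31.7% down. The drug effect differed between Vhl and control cells for 1 member, Igfbp2, with a positive difference; of all genes 12.8% were called, 7.81% with a positive and 4.96% with a negative difference. Scaling by total counts changed the balance of all calls: the share called higher was 56.6% in place of 42.6% in Vhl against control cells with DMSO, and 44.0% in place of 61.2% for the difference of drug effects. With the size factors of DESeq2 it was 43.7% in place of 53.3% in Vhl against control cells with AZD8330. In untreated cells edgeR called 0 of the 7 members, against 0.0147% of all genes. An unadjusted p under 0.05 was found for 1 member, against 1267 of all 13569 genes. DESeq2 also called 0 members, against 355 of all genes, and limma called 0.

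The median log2 change of the 7 tested members was -0.24 in Vhl against control cells with DMSO and -0.76 with AZD8330, where the medians of all tested genes were -0.03 and 0.01. For AZD8330 against DMSO the median of the members was -0.37 in Vhl cells and -0.81 in control cells, with 0.03 and -0.01 over all genes. The libraries of the 2 groups did not overlap for 6 of 7 members in Vhl against control cells with AZD8330 and for 4 of 7 with DMSO, where 43.0% and 44.8% of all genes did not overlap. Between AZD8330 and DMSO the same held for 5 of 7 members in Vhl cells and 6 of 7 in control cells, against 58.4% and 66.4% of all genes. In untreated cells it held for 0 of 7 members, against 15.8% of all genes.

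**Figure D1:**
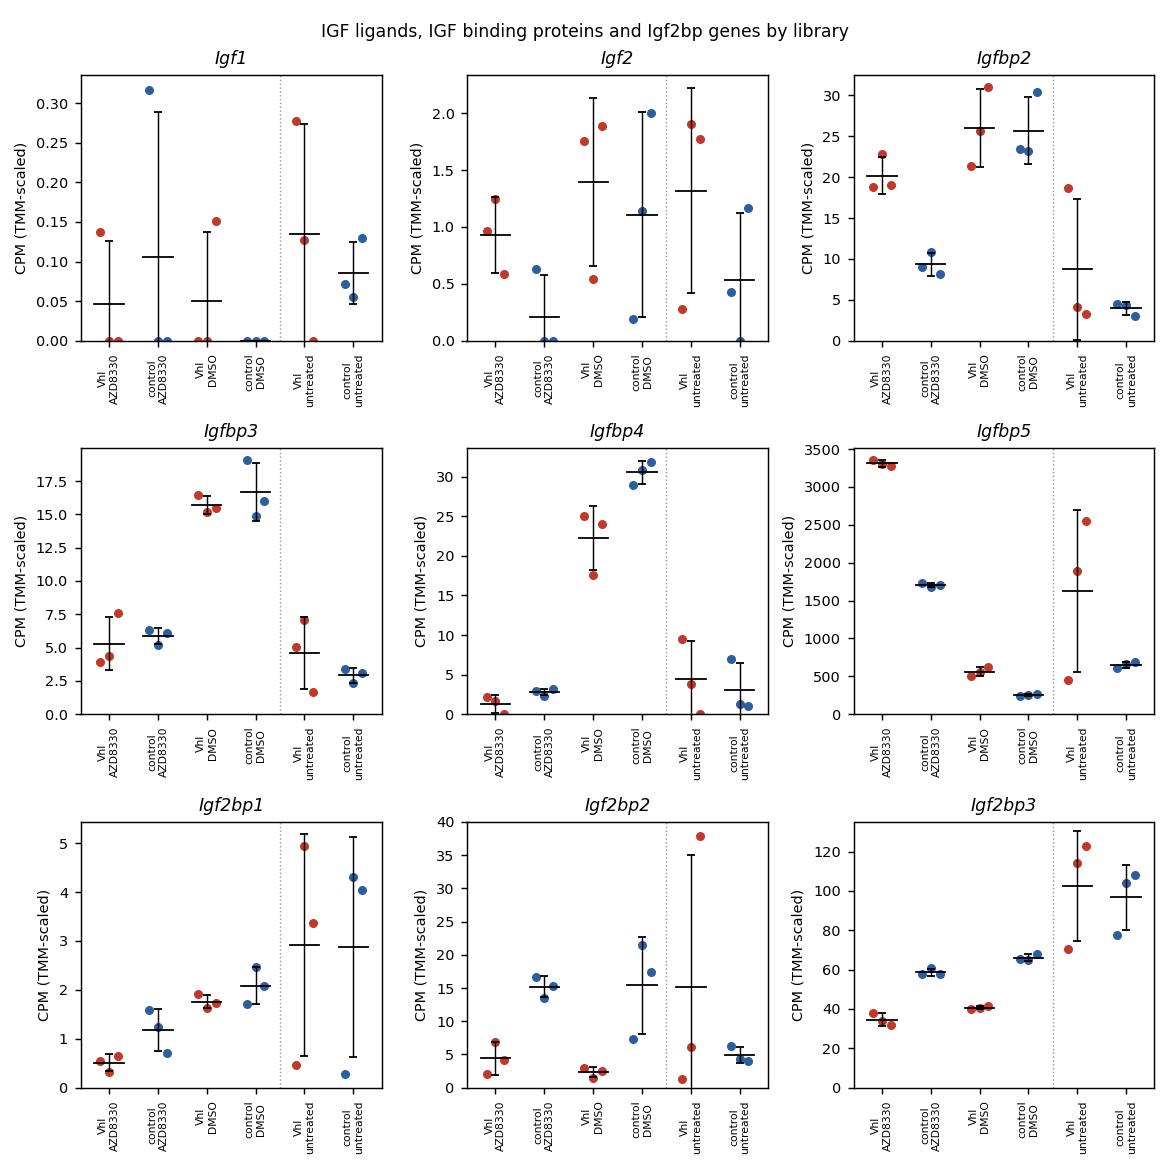
Level of each gene in every library, in TMM-scaled CPM on a linear axis that starts at 0 and has its own range per gene. Points are libraries (red, Vhl; blue, control), black lines are means, bars are SD over 3 libraries with lower ends cut at 0, and the dotted line separates the drug table from the untreated table, which was normalized separately. Igfbp5 is highest in the 3 Vhl libraries with AZD8330, at 3278 to 3357 CPM, and Igfbp4 is near 0 in all 6 AZD8330 libraries.

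The ligands were at the limit of detection. Igf1 (chr10:87858265-87937042, plus strand, build GRCm38) read 0.138, 0 and 0 CPM in Vhl and 0.317, 0 and 0 CPM in control libraries with AZD8330. With DMSO it read 0, 0 and 0.151 CPM in Vhl libraries and had no counts in control libraries, where a count of 0 allows up to 0.190, 0.201 and 0.214 CPM per library (3 counts, counting error only). In untreated cells it read 0.278, 0.127 and 0 CPM in Vhl and 0.0715, 0.0551 and 0.130 CPM in control libraries. No library exceeded 0.317 CPM, and differences between the groups were not detectable at this depth. The microglial list, which marks a usual brain source of Igf1, summed to under 2 CPM in every library and had no counts for Trem2.

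Igf2, the second ligand (chr7:142650766-142666816, minus strand), read 0.966, 1.24 and 0.582 CPM in Vhl and 0.634, 0 and 0 CPM in control libraries with AZD8330. With DMSO it read 1.75, 0.545 and 1.89 CPM in Vhl and 0.190, 1.14 and 1.999 CPM in control libraries. Untreated Vhl libraries read 0.278, 1.90 and 1.78 CPM, and untreated control libraries 0.429, 0 and 1.17 CPM. The groups overlapped with DMSO and without treatment; with AZD8330 the lowest Vhl library, at 0.582 CPM, was below the highest control library, so they overlapped there too. Of the 31-base words in the Igf2 exons, 61.9% also occur in the overlapping gene Gm49394 on the same strand, so the authors' counting could have split reads between the 2 names. Gm49394 averaged 0.283 CPM in Vhl and 0.507 CPM in control cells with AZD8330, and 0.273 and 0.134 CPM with DMSO. Untreated, it averaged 0.119 CPM in Vhl cells and had no counts in control cells. Its part in the Igf2 values was not tested.

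Per kilobase of exon, Igfbp5 had the highest level of the 9 genes in every group: 551 ± 6.87 and 284 ± 3.996 CPM per kb in Vhl and control cells with AZD8330, 93.6 ± 9.36 and 42.2 ± 2.77 with DMSO, and 272 ± 178 and 109 ± 6.06 without treatment (SD, n = 3). Its libraries did not overlap those of the gene below it in any group. With DMSO the order in Vhl cells after Igfbp5 was Igfbp2, then Igfbp4, Igfbp3 and Igf2bp3 at 5.03, 5.02 and 4.98 CPM per kb, whose libraries overlapped; in control cells it was Igfbp2, Igf2bp3, Igfbp4, Igfbp3 and Igf2bp2, with no overlap between neighbours. With AZD8330 the genes after Igfbp5 in Vhl cells were Igfbp2 at 10.9 and Igf2bp3 at 4.24 CPM per kb, and in control cells Igf2bp3 at 7.19 and Igfbp2 at 5.05 CPM per kb, without overlap between neighbours in either group. In both untreated groups Igf2bp3 came after Igfbp5, at 12.6 CPM per kb in Vhl cells, overlapping Igfbp2, and 11.8 in control cells, not overlapping it. Igf1 was last everywhere.

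Igfbp5 also dominated the sum of the 4 binding proteins per kilobase. Its share was 97.5% to 97.9% in Vhl and 97.2% to 97.6% in control libraries with AZD8330, against 79.0% to 80.3% in Vhl and 61.2% to 63.0% in control libraries with DMSO. The untreated libraries, from a table normalized separately, gave 84.6% to 99.5% in Vhl cells and 95.2% to 97.6% in control cells. Igf2bp3 in turn made up most of the 3 RNA binders per kilobase: 81.2% to 93.3% in Vhl and 74.5% to 79.2% in control libraries with AZD8330, and 89.1% to 93.1% in Vhl and 71.6% to 87.2% in control libraries with DMSO. Untreated libraries gave 73.3% to 97.4% in Vhl cells and 91.6% to 93.2% in control cells.

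**Figure D2:**
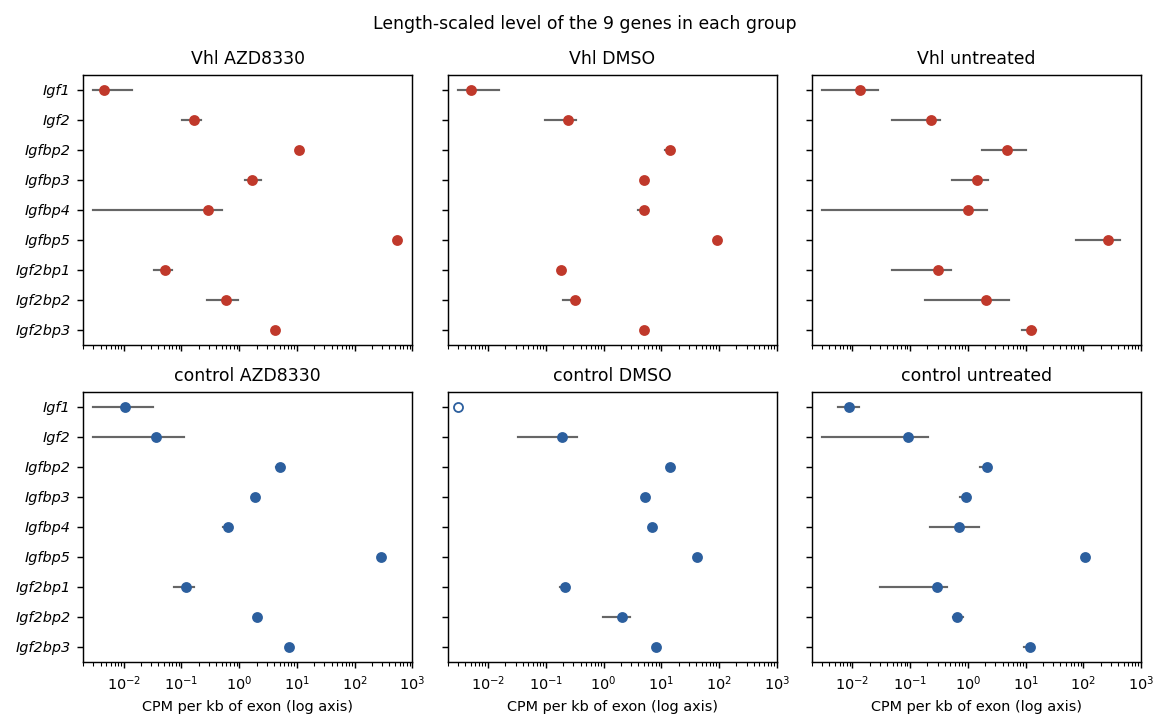
Mean level of the 9 genes in each group in CPM per kb of exon on a log axis, with a line from the lowest to the highest of 3 libraries (red, Vhl; blue, control). Values under 0.003, zeros included, are drawn at 0.003, and an open point marks a mean under that value. Igfbp5 is at the right of every panel, at 551 CPM per kb in Vhl cells with AZD8330, and Igf1 at the left.

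Igfbp5, a binding protein that also attaches to extracellular matrix (chr1:72857932-72874884, minus strand), rose in Vhl cells and rose with the MEK inhibitor. It read 3357, 3297 and 3278 CPM in Vhl and 1732, 1684 and 1708 CPM in control libraries with AZD8330. With DMSO it read 508, 558 and 621 CPM in Vhl and 240.0, 249 and 272 CPM in control libraries. The 4 groups stood apart in every library, in the order Vhl with AZD8330, control with AZD8330, Vhl with DMSO and control with DMSO.

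The log2 change of Igfbp5 in Vhl against control cells was 0.95 ± 0.06 (SE) with AZD8330 (edgeR, adjusted p = 8.70e-08) and 1.15 ± 0.06 with DMSO (edgeR, adjusted p = 3.43e-08), which are 1.94-fold and 2.22-fold. AZD8330 raised it by 2.56 ± 0.06 in Vhl cells (edgeR, adjusted p = 5.15e-12) and by 2.75 ± 0.06 in control cells (edgeR, adjusted p = 2.11e-12), which are 5.89-fold and 6.73-fold. The drug effect in Vhl minus control cells was -0.19 ± 0.09, which missed the threshold (edgeR, adjusted p = 0.173). For Igfbp5 this difference was called in 3 of 20 alternatives, and its values over all 20 ran from -0.29 to -0.12. None of the 31-base words of its exons occurs in another annotated gene.

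In untreated cells Igfbp5 read 456, 1888 and 2547 CPM in Vhl and 612, 659 and 684 CPM in control libraries. Vhl library A was below every control library, and Vhl libraries B and C were above them all. The log2 change of 1.32 ± 0.55 missed the threshold (edgeR, adjusted p = 0.528). Without Vhl library A it was 1.77 (edgeR, adjusted p = 0.00824), and without both A libraries 1.72 (edgeR, adjusted p = 0.0266).

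Summed markers of other cells differed between the same groups as Igfbp5. The 6 neuronal markers summed to 563 to 591 CPM in Vhl and 376 to 388 CPM in control libraries with AZD8330, and to 360.2 to 370.2 CPM in Vhl and 166 to 174 CPM in control libraries with DMSO. The 5 astrocyte markers summed to 556 to 597 CPM in Vhl and 1089 to 1157 CPM in control libraries with AZD8330, and to 158 to 172 CPM in Vhl and 254 to 278 CPM in control libraries with DMSO. The neuronal sum was higher where Igfbp5 was higher in both the Vhl and the drug comparison, while the astrocyte sum was higher with AZD8330 and lower in Vhl cells. Most of the astrocyte sum was Gja1. It averaged 417 CPM in Vhl and 901 CPM in control cells with AZD8330, and 133 and 229 CPM with DMSO. Of 5 astrocyte markers tested in Vhl against control cells, 3 fell and 0 rose with AZD8330, where 30.0% of all genes were called. With DMSO 2 fell and 0 rose, where 32.3% of all genes were called. Aldh1l1, not called, averaged higher in Vhl cells with both treatments, and Aqp4 with DMSO, at 4.27 against 3.31 CPM. Most of the neuronal sum was Dcx, a microtubule protein of young neurons, at 405.1 CPM in Vhl and 263 CPM in control cells with AZD8330 and 269 CPM in Vhl and 113 CPM in control cells with DMSO on average. The neuronal markers did not all move alike. Of 5 tested in Vhl against control cells, 3 rose and 1 fell with AZD8330, where 30.0% of all genes were called. With DMSO 2 rose and 0 fell, where 32.3% of all genes were called. The marker that fell was Rbfox3, a splicing factor of mature neurons, at -0.46 ± 0.09. The 5 mature oligodendrocyte markers summed to 23.7 to 27.7 CPM in Vhl and 54.5 to 60.01 CPM in control libraries with AZD8330, and to 8.28 to 13.4 CPM in Vhl and 13.2 to 14.4 CPM in control libraries with DMSO. Pericyte and fibroblast markers summed to at most 4.22 CPM in the drug table, with no counts for Pdgfrb. The 6 endothelial markers summed to 10.5 to 13.0 CPM in Vhl and 6.02 to 7.37 CPM in control libraries with AZD8330, and to 16.5 to 17.7 CPM in Vhl and 5.92 to 8.51 CPM in control libraries with DMSO, with no counts for Cldn5. Most of the endothelial sum was Flt1 and Kdr. Flt1 averaged 6.05 CPM in Vhl and 0.317 CPM in control cells with AZD8330, and 8.54 and 0.73 CPM with DMSO. Kdr averaged 5.69 and 5.88 CPM with AZD8330, and 6.49 and 3.29 CPM with DMSO. Tek and Cdh5 averaged lower in Vhl cells with both treatments. With DMSO Tek averaged 0.841 against 2.07 CPM, and Cdh5 0.467 against 0.646 CPM. The part of such cells in the Igfbp5 result was not tested.

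Igfbp2 (chr1:72824503-72852474, plus strand), a binding protein abundant in the fetal brain, lies 5457 bases from Igfbp5 with no annotated gene between them. It read 18.8, 22.8 and 19 CPM in Vhl and 9.06, 10.8 and 8.10 CPM in control libraries with AZD8330, without overlap. With DMSO the ranges overlapped, at 21.4, 25.7 and 31.01 CPM in Vhl and 23.5, 23.2 and 30.4 CPM in control libraries.

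The log2 change of Igfbp2 with AZD8330 was -0.37 ± 0.16 in Vhl cells, which missed the threshold (edgeR, adjusted p = 0.0691), and -1.46 ± 0.16 in control cells, where it fell (edgeR, adjusted p = 5.26e-06). In Vhl cells the change was called in 3 of 15 alternatives, and its values over all 15 ran from -0.49 to -0.22. The difference of the drug effects, Vhl minus control cells, was 1.09 ± 0.23 on the log2 scale (edgeR, adjusted p = 0.00747). Igfbp2 was accordingly 1.11 ± 0.17 higher on the log2 scale in Vhl than in control cells with AZD8330 (edgeR, adjusted p = 2.13e-04), and 0.02 ± 0.16 apart with DMSO (edgeR, adjusted p = 0.944). Untreated, it read 18.7, 4.12 and 3.30 CPM in Vhl and 4.51, 4.36 and 3.06 CPM in control libraries, where Vhl library A alone lay above the controls. The log2 change there was 1.13 ± 0.68 (edgeR, adjusted p = 0.676), and -0.10 without Vhl library A.

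Igfbp3 (chr11:7206086-7213923, minus strand), the main IGF carrier of the circulation, was lower with AZD8330 in both genotypes. It read 3.93, 4.38 and 7.57 CPM in Vhl and 6.34, 5.15 and 6.10 CPM in control libraries with AZD8330, and 16.5, 15.2 and 15.5 CPM in Vhl and 19.1, 14.9 and 16.0 CPM in control libraries with DMSO. All 6 AZD8330 libraries lay below all 6 DMSO libraries, and the genotypes overlapped within each treatment. The drug effect was -1.57 ± 0.21 in Vhl cells (edgeR, adjusted p = 3.83e-05) and -1.51 ± 0.21 in control cells (edgeR, adjusted p = 3.54e-05). Vhl against control cells gave -0.15 with AZD8330 and -0.09 with DMSO (edgeR, adjusted p = 0.664 and 0.793). Untreated, it read 5.04, 7.04 and 1.65 CPM in Vhl and 3.36, 2.32 and 3.06 CPM in control libraries, which overlap.

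Igfbp4 (chr11:99041244-99054392, plus strand), the binding protein that pappalysin cuts, had the largest change of the 7 tested members. It read 2.21, 1.64 and 0 CPM in Vhl and 2.92, 2.35 and 3.16 CPM in control libraries with AZD8330, against 25.0, 17.6 and 24.1 CPM in Vhl and 29.0, 30.9 and 31.8 CPM in control libraries with DMSO. The drug effect was -4.08 ± 0.48 in Vhl cells (edgeR, adjusted p = 1.02e-05) and -3.44 ± 0.43 in control cells (edgeR, adjusted p = 1.37e-05). In Vhl cells it was -4.74 without AZD8330 library A.

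In both treatments every Vhl library of Igfbp4 lay below every control library. The log2 changes of -1.10 ± 0.53 with AZD8330 and -0.46 ± 0.37 with DMSO nonetheless missed the threshold (edgeR, adjusted p = 0.148 and 0.378). With AZD8330 the value was -1.10 and called when low genes were not filtered out (edgeR, adjusted p = 0.00811), -1.97 with limma at pseudocount 0.1, -1.76 without Vhl library A and -0.55 without Vhl library C. With DMSO it was -0.43 and called when only the 2 groups were fitted (edgeR, adjusted p = 0.0450). Its untreated values were 9.53, 3.87 and 0 CPM in Vhl and 7.01, 1.32 and 0.976 CPM in control libraries, where library A was highest in each group. Of its 31-base words, 6.18% occur in another annotated gene.

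**Figure D3:**
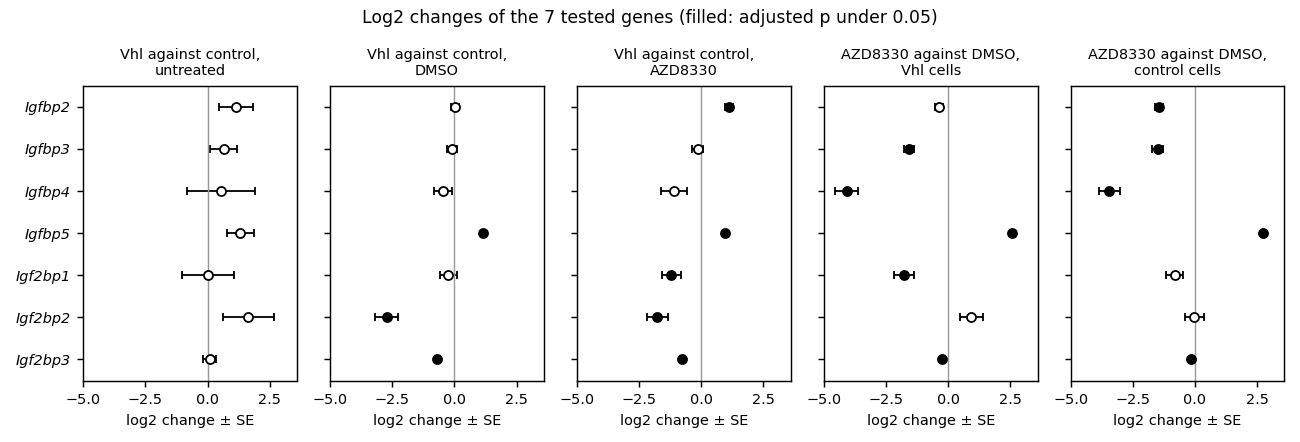
Log2 changes with SE bars for the 7 tested genes in 5 comparisons, Vhl against control cells in the 3 panels at the left and AZD8330 against DMSO in the others. Filled points have an adjusted p under 0.05 (edgeR). Igfbp5 lies right of 0 in all panels and is open in the untreated panel, Igfbp4 reaches -4.08 in Vhl cells with the drug, and Igf2bp3 is near -0.7 in both Vhl comparisons of the drug table.

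Igf2bp3, the most abundant RNA binder of the family here (chr6:49085223-49214957, minus strand), was lower in Vhl cells in both treatments. It read 38.0, 34.1 and 31.7 CPM in Vhl and 57.7, 60.7 and 57.7 CPM in control libraries with AZD8330. With DMSO it read 39.9, 40.6 and 41.5 CPM in Vhl and 65.3, 65.1 and 68.0 CPM in control libraries. All 6 Vhl libraries lay below all 6 control libraries.

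The log2 change of Igf2bp3 in Vhl against control cells was -0.76 ± 0.06 with AZD8330 (edgeR, adjusted p = 1.19e-06) and -0.70 ± 0.06 with DMSO (edgeR, adjusted p = 2.90e-06). AZD8330 lowered it slightly, with -0.23 ± 0.06 in Vhl cells (edgeR, adjusted p = 0.00837) and -0.17 ± 0.06 in control cells (edgeR, adjusted p = 0.0255). The call in control cells was lost in 8 of 15 alternatives. Among these, the log2 change was -0.12 with total count scaling (edgeR, adjusted p = 0.108). It was -0.15 to -0.16 when control library A, B or C with AZD8330 or control library C with DMSO was left out (edgeR, adjusted p = 0.0712 to 0.0808). Over all 15 alternatives Igf2bp3 changed by -0.20 to -0.11 on the log2 scale. In untreated cells its ranges overlapped, with 70.7, 114 and 123 CPM in Vhl and 77.5, 104 and 108 CPM in control libraries, and a log2 change of 0.08 ± 0.25 (edgeR, adjusted p = 0.957).

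Igf2bp3 shares 1529 exon bases with Malsu1, a gene on the opposite strand, and 18.4% of its 31-base words occur there. The labels do not state the strandedness of the libraries, so reads from the shared stretch cannot be told apart. Malsu1 averaged 28.9 ± 1.02 CPM in Vhl and 33.0 ± 2.53 CPM in control cells with AZD8330, and 35.5 ± 1.60 CPM in Vhl and 42.4 ± 0.42 CPM in control cells with DMSO (SD, n = 3). Its log2 change in Vhl against control cells was -0.26 ± 0.07 with DMSO (edgeR, adjusted p = 0.0101) and -0.19 ± 0.07 with AZD8330 (edgeR, adjusted p = 0.0508). Malsu1 was looked up after the overlap had been seen, and its part in the Igf2bp3 result was not tested.

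Igf2bp2 (chr16:22059009-22163299, minus strand), the family member known for its link to metabolism and muscle, read 2.07, 6.93 and 4.22 CPM in Vhl and 16.7, 13.5 and 15.4 CPM in control libraries with AZD8330. With DMSO it read 2.95, 1.499 and 2.57 CPM in Vhl and 7.36, 21.5 and 17.4 CPM in control libraries. Vhl libraries lay below control libraries in both treatments, and the control libraries with DMSO were spread nearly as widely as their mean. The log2 change in Vhl against control cells was -1.78 ± 0.42 with AZD8330 (edgeR, adjusted p = 0.00621) and -2.73 ± 0.45 with DMSO (edgeR, adjusted p = 5.04e-04). The drug effect missed the threshold in Vhl cells, at 0.93 ± 0.47 (edgeR, adjusted p = 0.117), and in control cells, at -0.02 ± 0.39 (edgeR, adjusted p = 0.972).

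In untreated cells Igf2bp2 did not show that order. It read 1.34, 6.15 and 37.9 CPM in Vhl and 6.22, 4.30 and 4.04 CPM in control libraries, where Vhl library A was lowest and Vhl library C highest of all 6. The log2 change of 1.64 ± 1.03 missed the threshold (edgeR, adjusted p = 0.696), and without Vhl library C it was -0.38.

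Igf2bp1 (chr11:95957163-96005940, minus strand), a regulator of messenger RNA localization and decay, was near the filter. It read 0.552, 0.327 and 0.655 CPM in Vhl and 1.58, 1.24 and 0.717 CPM in control libraries with AZD8330, against 1.91, 1.64 and 1.74 CPM in Vhl and 1.71, 2.47 and 2.07 CPM in control libraries with DMSO. The groups were apart with AZD8330 and overlapped with DMSO. AZD8330 lowered it in Vhl cells, with a log2 change of -1.77 ± 0.38 (edgeR, adjusted p = 0.00176), while -0.81 ± 0.35 in control cells missed the threshold (edgeR, adjusted p = 0.0614); the difference of these effects was -0.96 ± 0.52 (edgeR, adjusted p = 0.270).

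Vhl against control cells gave a log2 change of -1.21 ± 0.39 for Igf2bp1 with AZD8330 (edgeR, adjusted p = 0.0333). That call was lost in 7 of 13 alternatives, among them leaving out library A or B of either group, which gave -0.94 to -1.32 (edgeR, adjusted p = 0.0542 to 0.132). The values rest on 22 counts over 3 Vhl libraries and 54 over 3 control libraries. With DMSO the log2 change was -0.24 ± 0.34 (edgeR, adjusted p = 0.643). Untreated libraries read 0.462, 4.94 and 3.36 CPM in Vhl and 0.286, 4.30 and 4.04 CPM in control cells, and library A was lowest in both groups.

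Some members had different levels in the 2 tables, which were normalized separately and not tested against each other. Control cells had 240.0 to 272 CPM of Igfbp5 with DMSO and 612 to 684 CPM untreated, and for Igfbp2 23.2 to 30.4 CPM with DMSO and 3.06 to 4.51 CPM untreated. In control cells Igfbp2 was above Igf2bp3 per kilobase with DMSO and below it untreated.

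Genes with a pattern most like each member over the 12 libraries of the drug table were ranked by the root mean square (RMS) difference of log2(CPM + 1) after subtracting each gene's mean. The nearest to Igfbp5 were Ntsr2, a neurotensin receptor, at 0.13, Dpysl3, a neuronal cytoskeleton protein, at 0.22, and Nkx6-2, a homeobox factor of the oligodendrocyte lineage, at 0.24. Nearest to Igfbp4 were the mitotic genes Cdk1 at 0.31, Kif2c at 0.34 and Bub1 at 0.34. Igfbp2 was nearest to Cd3eap at 0.19, Jun at 0.20 and Dock5 at 0.20, and Igfbp3 to Abcb1b at 0.16, Ccdc18 at 0.17 and Lao1 at 0.18. Igf2bp2 was nearest to Erbb3, the neuregulin receptor, at 0.49, Ndn at 0.53 and Sox10 at 0.54, which are wider distances than for the other members. Igf2bp1 was nearest to Mcc at 0.15, Whrn at 0.16 and Haus7 at 0.16. Igf2bp3 varied by less than 1 log2 unit between group means and was not ranked. These distances are descriptions, and the 12 libraries share their 4 groups.

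Of 11 receptor and adaptor genes, 7 were tested. In Vhl against control cells, 2 rose and 1 fell with AZD8330, and 2 rose and 0 fell with DMSO, where 30.0% and 32.3% of all genes were called. AZD8330 raised 2 and lowered 4 in Vhl cells, and raised 1 and lowered 5 in control cells, where 51.4% and 60.8% of all genes were called. Igf1r, the receptor for both ligands, read 151 to 156 CPM in Vhl and 110 to 123 CPM in control libraries with AZD8330, and 215 to 232 CPM in Vhl and 181 to 189 CPM in control libraries with DMSO. In each treatment of the drug table it was thus higher in every Vhl library, and in each genotype lower in every AZD8330 library. The drug effects on Igf1r were -0.53 ± 0.04 in Vhl and -0.65 ± 0.04 in control cells (edgeR, adjusted p = 4.12e-07 and 3.87e-08). In Vhl against control cells its log2 change was 0.39 ± 0.04 with AZD8330 and 0.27 ± 0.04 with DMSO (edgeR, adjusted p = 2.39e-05 and 4.69e-04). Untreated, Igf1r read 150 to 640 CPM in Vhl and 262 to 310.5 CPM in control libraries, which overlap. The log2 change there was 0.55 ± 0.47 (edgeR, adjusted p = 0.783).

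The adaptors Irs1 and Irs2, which carry the signal from the receptor to PI3-kinase, fell with AZD8330. Irs1 read 27.0 to 30.9 CPM in Vhl and 30.1 to 34.5 CPM in control libraries with AZD8330, against 83.6 to 106 CPM in Vhl and 88.9 to 96.1 CPM in control libraries with DMSO. Its log2 change was -1.67 ± 0.09 in Vhl and -1.55 ± 0.09 in control cells, and that of Irs2 was -1.18 ± 0.06 and -1.47 ± 0.07. The insulin receptor gene Insr fell too, by 0.47 ± 0.05 in Vhl and by 0.29 ± 0.05 in control cells on the log2 scale, and rose by 0.29 ± 0.05 in Vhl cells with DMSO. Shc1, an adaptor of the Ras pathway, fell with AZD8330 in control cells, at -0.62 ± 0.18.

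Irs4, a further adaptor, rose with AZD8330 by 1.45 ± 0.31 in Vhl and 1.92 ± 0.30 in control cells. In Vhl against control cells with AZD8330, Irs4 fell by 0.89 ± 0.28 and Irs2 rose by 0.22 ± 0.07, but the Irs4 call was lost without control or Vhl library A or C, at -0.80 to -0.95, and the Irs2 call without control library B or C or Vhl library A or C, at 0.10 to 0.22. Grb10, an inhibitor of the receptor, rose with AZD8330 in Vhl cells, at 2.25 ± 0.71, a value that rests on library A at 9.86 CPM against 0.981 and 3.13 CPM in libraries B and C; without it the log2 change was 0.9996 and missed the threshold (edgeR, adjusted p = 0.190), and without Vhl DMSO library B it was 1.91 (edgeR, adjusted p = 0.0695). Igf2r, the receptor that takes up IGF-2, is listed at 0 in all but 4 of the 18 libraries and at no more than 0.110 CPM in those.

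Of 11 other binding proteins, proteases and protease inhibitors, 6 were tested in the drug table. In Vhl against control cells 2 rose and 2 fell with each treatment, against 30.0% of all genes called with AZD8330 and 32.3% with DMSO. AZD8330 raised 2 and lowered 1 in Vhl cells, and raised 2 and lowered 3 in control cells, against 51.4% and 60.8% of all genes called. The 2 that rose in Vhl cells were Stc1 and Stc2, the stanniocalcins, secreted inhibitors of the pappalysins that cut Igfbp4 and Igfbp5. The pappalysin genes Pappa and Pappa2, also on this list, were below the filter in both tables. In the drug table Pappa averaged 0.277 CPM in Vhl and 0.046 CPM in control cells with AZD8330. With DMSO it averaged 0.074 CPM in Vhl cells and had no counts in control cells. Pappa2 averaged 0.318 and 0.647 CPM in Vhl and control cells with AZD8330, and 0.218 and 0.354 CPM with DMSO. Pappalysin protein was not measured.

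Stc2 read 60.0, 60.0 and 54.2 CPM in Vhl and 6.34, 9.07 and 8.18 CPM in control libraries with AZD8330, against 56.9, 62.9 and 65.9 CPM in Vhl and 17.1, 21.5 and 18.99 CPM in control libraries with DMSO. Its log2 change in Vhl against control cells was 2.89 ± 0.12 with AZD8330 and 1.69 ± 0.11 with DMSO (edgeR, adjusted p = 2.21e-09 and 1.87e-07). Stc1 gave 2.28 ± 0.09 and 1.44 ± 0.08 (edgeR, adjusted p = 1.23e-09 and 6.78e-08). Like Igfbp2, both fell with AZD8330 in control cells, at -1.0 ± 0.09 for Stc1 and -1.29 ± 0.13 for Stc2, and were not called in Vhl cells. The drug effect in Vhl minus control cells was 0.84 ± 0.12 for Stc1 and 1.197 ± 0.16 for Stc2 (edgeR, adjusted p = 8.21e-04 and 5.20e-04).

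**Figure D4:**
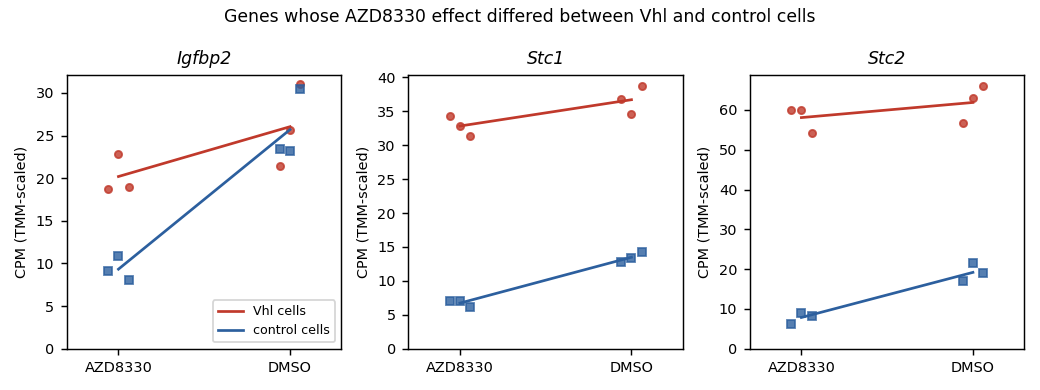
Level in CPM of Igfbp2, Stc1 and Stc2 in AZD8330 and DMSO libraries of Vhl cells (red circles) and control cells (blue squares), with lines joining the means of 3 libraries; the axes are linear and start at 0. Vhl libraries with AZD8330 lie above control libraries for all 3 genes, and the line is steeper in control cells.

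The protease Htra1, which cuts binding proteins, fell in Vhl cells, at -0.57 ± 0.06 with AZD8330 and -0.38 ± 0.07 with DMSO, and rose with AZD8330 by 0.21 ± 0.07 in Vhl and 0.39 ± 0.06 in control cells. Its drug effect in Vhl cells was 0.13 and not called without Vhl library A with AZD8330 or library C with DMSO. Ide, the insulin-degrading enzyme, also fell in Vhl cells, at -0.26 ± 0.05 and -0.46 ± 0.05 with the same treatments, and fell with AZD8330 in both genotypes. Igfbp7, a secreted protein related to the binding proteins, rose with AZD8330 by 1.76 ± 0.25 in Vhl and 1.21 ± 0.25 in control cells. Igfbp1 had no counts in any library.

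Of 6 genes listed for the Igf2 locus and its neighbours, 3 were tested. In Vhl against control cells 1 rose and 1 fell with AZD8330 and 1 rose with DMSO, against 30.0% and 32.3% of all genes called; AZD8330 raised 2 in Vhl cells, and raised 2 and lowered 1 in control cells, against 51.4% and 60.8%. H19, the noncoding RNA made from the other parental copy of that locus, read 9.59, 8.24 and 8.88 CPM in Vhl and 3.80, 4.31 and 3.37 CPM in control libraries with AZD8330, against 1.59, 3.34 and 2.57 CPM in Vhl and 0.508, 0.268 and 1.29 CPM in control libraries with DMSO. It rose in Vhl cells, at 1.22 ± 0.36 with AZD8330 and 1.87 ± 0.43 with DMSO (edgeR, adjusted p = 0.0231 and 0.00506). It rose with the drug by 1.82 ± 0.38 in Vhl and 2.48 ± 0.43 in control cells. Without control DMSO library C the 2 changes that use that group were 2.66 in Vhl cells with DMSO and 3.27 for the drug in control cells. The call in Vhl against control cells with AZD8330 was lost when any library but Vhl library B was left out, at 1.11 to 1.27 (edgeR, adjusted p = 0.0513 to 0.0754).

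Cdkn1c, the cell cycle inhibitor p57, rose with AZD8330 by 1.36 ± 0.20 in Vhl and 1.44 ± 0.19 in control cells; it was lower in Vhl cells with AZD8330, at -0.56 ± 0.19, a call that ended when any library but Vhl library B was left out, at -0.51 to -0.61. Mrpl23, a mitochondrial ribosome gene, fell with AZD8330 in control cells, at -1.02 ± 0.27.

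Of 7 genes of the let-7 and oncofetal programme, in which the microRNA let-7 represses Igf2bp genes, Hmga2 and Lin28b, 4 were tested. In Vhl against control cells of the drug table edgeR called 0, where 30.0% of all genes were called with AZD8330 and 32.3% with DMSO. At an unadjusted p under 0.05 there were 0, against 5250 and 5596 of all 13460 genes. DESeq2 and limma also called 0 of the list. For the drug itself, AZD8330 lowered 3 in each genotype, where 25.6% of all genes in Vhl and 31.7% in control cells were called lower. Esrrb, a pluripotency factor from the marker list, fell in the same comparisons, with log2 changes of -2.23 ± 0.23 in Vhl and -2.42 ± 0.23 in control cells and levels of 2.55 to 4.15 CPM in Vhl and 2.30 to 4.37 CPM in control libraries with AZD8330, against 14.2 to 17.6 CPM in Vhl and 17.3 to 22.1 CPM in control libraries with DMSO. Nanog, from the same marker list, rose in these comparisons, at 1.61 ± 0.49 in Vhl and 2.13 ± 0.44 in control cells. Fgf5, also on that list, fell in Vhl cells, at -1.16 ± 0.41, and was not called in control cells. The part of Esrrb in the falls of the let-7 list, and in those of Igfbp3 and Igfbp4, was not tested. Hmga2, a chromatin protein of fetal and tumour cells, read 0.0690, 0 and 0.218 CPM in Vhl and 0.190, 0 and 1.43 CPM in control libraries with AZD8330, against 3.03, 2.18 and 2.64 CPM in Vhl and 4.44, 4.48 and 2.14 CPM in control libraries with DMSO. Lin28b, which blocks let-7 maturation, fell by 0.85 ± 0.14 in Vhl and by 1.15 ± 0.14 in control cells on the log2 scale. Dicer1, which cuts microRNA precursors, fell by 0.14 ± 0.05 in Vhl and by 0.28 ± 0.05 in control cells; in Vhl cells the change was -0.11 to -0.12 and not called without library B with AZD8330 or library A or C with DMSO.

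**Figure D5:**
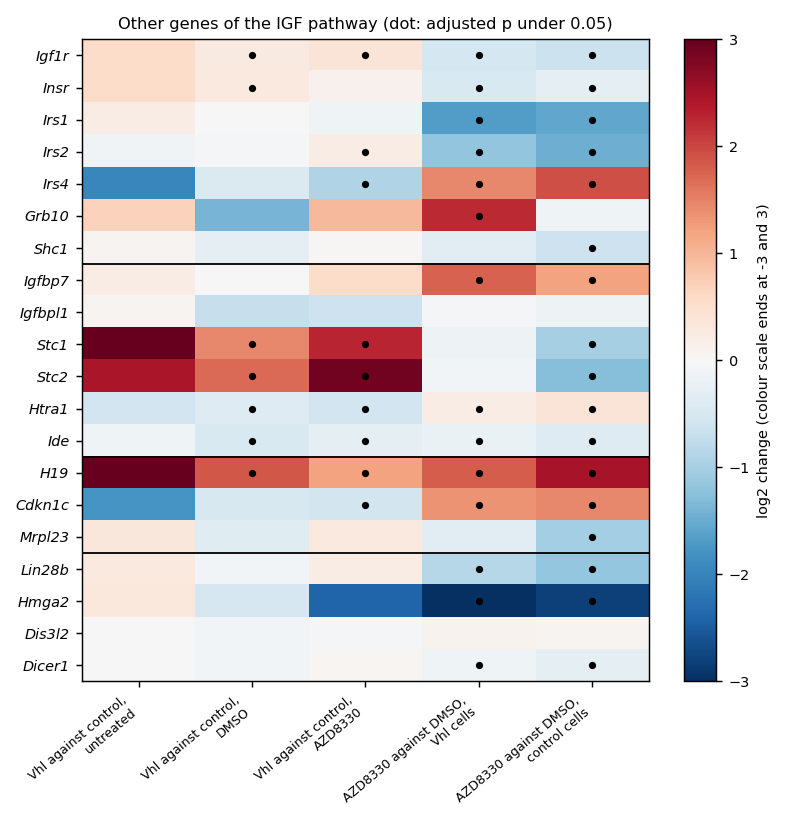
Log2 changes of the other tested pathway genes in 5 comparisons, as colours that end at -3 and 3. Horizontal lines separate receptors and adaptors, other binding proteins and proteases, the Igf2 locus with its neighbours, and let-7 and oncofetal genes. Dots mark an adjusted p under 0.05 (edgeR). Stc1 and Stc2 are positive in Vhl cells and negative with AZD8330 in control cells at -1.0 and -1.29, and no gene has a dot in the untreated column.

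In untreated cells edgeR called 0 genes of these 4 lists. At an unadjusted p under 0.05 the counts were 1 of 7 tested receptor or adaptor genes and 3 of 7 binding or protease genes. They were 2 of 3 in the list of the Igf2 locus and its neighbours, and 0 of 4 in the let-7 list. Of all 13569 tested genes, 1267 had such a p. DESeq2 called 2 binding or protease genes higher and, in the Igf2 locus list, 1 higher and 1 lower, against 355 of all 13569 genes called. With limma 0 were called in every list, against 4 of all genes.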

How the data were processed

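RNA was measured in 18 libraries, 3 for each of the 6 groups named above. Per the submitters' processing notes, Salmon 0.14.1 and the build mm10 were used; the step from transcripts to genes is not stated there. Both tables that the authors deposited are named as TPM, but hold estimated counts, since column totals differ between libraries. They were rounded to whole numbers, so edgeR replaced the limma test planned for TPM. Each table of 54279 rows was fitted on its own with edgeR 4.0.16 (R 4.3.3): TMM scaling, a filter of 1 CPM on the mean (13569 genes untreated, 13460 drug), quasi-likelihood test, Benjamini-Hochberg adjustment over all tested genes, threshold 0.05. The 4 drug groups shared a fit. "Rose" and "fell" mean an adjusted p under 0.05. CPM values are relative to TMM-scaled totals, ± is SD for levels and SE for log2 changes, and 3 counts is the detection floor; it covers counting error only. Alternatives used DESeq2 1.42.0, limma 3.58.1 on log2(CPM + 1) and log2(CPM + 0.1), other scalings and filters, the replicate block, 2-group fits, and leaving libraries out. The test was tried on simulated counts with 200 changed genes. That trial is not used as support for any result here. The labels give the letters A to C and do not say whether same-lettered libraries belong together. Positions are from GENCODE M21, whose names include 98.37% of rows, and RefSeq windows matched 8 of the 9 members. The named genes were the 9 members, and from each pathway list every gene called at least once; members and lists were chosen with earlier results of these data known. Protein sequences were not used here.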

Additional observations from a re-analysis of the deposited data

Results flagged for a closer look

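The effect of AZD8330 differed between Vhl and control cells, tested as an interaction in the fit over the 4 drug groups, for Igfbp2 with a log2 difference of 1.092 ± 0.23 (edgeR, adjusted p = 0.00747). The difference was 0.8399 ± 0.12 for Stc1 (edgeR, adjusted p = 8.21e-04) and 1.197 ± 0.16 for Stc2 (edgeR, adjusted p = 5.20e-04). For all 3 genes the fall with AZD8330 was larger in control cells. For Vhl itself the difference was -0.2661 ± 0.07 (edgeR, adjusted p = 0.0242), where the change with AZD8330 was 0.12 ± 0.05 in Vhl cells, which missed the threshold (edgeR, adjusted p = 0.0682), and 0.38 ± 0.05 in control cells, where it rose. The Vhl difference was lost without control AZD8330 library A, control DMSO library C, or Vhl DMSO library B or C, with adjusted p-values of 0.0528 to 0.0560 from edgeR.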

How the results depend on the processing

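The number of members called moved by over 1.5 times in 2 comparisons. Without both A libraries 1 member was called in untreated cells, against 606 of all 13561 genes. For the difference of drug effects DESeq2 called 2, against 1713 of all 13460 genes. The 5 CPM filter also gave 2, against 1741 of 10077 genes. Leaving out each library gave 0 to 1 members in untreated cells, against 0 to 430 of all 13569 genes. For the difference of drug effects it gave 1 to 2 members, against 1246 to 1587 of all 13460 genes. Igf2bp1 in Vhl against control cells with AZD8330 and Igf2bp3 with AZD8330 in control cells were the calls of members that an alternative ended. No called change of a member reversed. Some changes that had missed the threshold were called in an alternative. Beside those of Igfbp2, Igfbp4 and Igfbp5 given above, the AZD8330 effect was called for Igf2bp1 in control cells in 2 of 14. For Igf2bp2 in Vhl cells it was called in 2 of 15. Igfbp3 in Vhl against control cells with AZD8330 was called in 1 of 15.

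Deviations of same-lettered libraries correlated at -0.081 to 0.020 untreated and -0.044 to 0.053 in the drug table. Of the libraries, 0 of 6 and 7 of 12 correlated best with their own letter. With 3 libraries per group, such correlations cannot settle whether the letters pair the libraries. With the replicate block the members called were 0 untreated, 3 in Vhl against control cells with DMSO and 4 with AZD8330, 5 with AZD8330 in each genotype, and 1 for the difference. Of all 13460 genes of the drug table, the block fit called 4218 in Vhl against control cells with DMSO and 3895 with AZD8330. For the drug it called 6832 in Vhl and 8090 in control cells, and for the difference 1552. All genes called in untreated cells numbered 2, against 355 with DESeq2, 4 with limma, 143 with no filter, 606 without both A libraries, 430 without Vhl library A, and 0 with the replicate block or without control library A, B or C or Vhl library B.

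The changes that reversed had missed the threshold. Untreated, Igf2bp1 went to -0.0377 with total scaling, -0.02633 with no filter and -0.008212 without both A libraries, Igfbp4 to -0.5038 with limma at pseudocount 0.1 and -0.04279 with the block, and Igfbp2 to -0.00381 without both A libraries. The AZD8330 effect on Igf2bp2 in control cells was 0.003001 with DESeq2 size factors, 0.03396 with total scaling, 0.00198 with DESeq2, 0.09409 and 0.1095 with limma, 0.04729 with the 5 CPM filter, 0.08628 with the block and 0.01055 with 2 groups. Igfbp2 with DMSO was -0.00314 with no filter. Leaving out each library gave, untreated, -0.603 to 0.5218 for Igf2bp1, -0.3805 to 2.184 for Igf2bp2, -0.06777 to 0.2915 for Igf2bp3, -0.09909 to 1.515 for Igfbp2 and -0.6708 to 1.952 for Igfbp4. It gave -0.1231 to 0.158 for Igfbp2 and -0.1601 to 0.02425 for Igfbp3 in Vhl against control cells with DMSO, -0.3556 to 0.3018 for the AZD8330 effect on Igf2bp2 in control cells, and -0.4084 to 0.05519 for the difference of drug effects on Igfbp3. The cause was not tested. Depth limits Igf1, Igf2, Igf2bp1 and the AZD8330 values of Igfbp4.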

Other observations

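Insrr, the insulin receptor-related receptor, was below the filter and was singled out after its values were seen. It read 0.483, 0.523 and 0.510 CPM in Vhl libraries with AZD8330, 0.637, 0.681 and 0.981 CPM in Vhl libraries with DMSO, and 0.0925, 0.951 and 0.507 CPM in untreated Vhl libraries. It had no counts in any of the 9 control libraries, where 3 counts are worth 0.165 to 0.215 CPM.

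The authors' deposited table for untreated cells also holds a mean column named for Vhl. In all 54279 rows it equals, within 0.01, the mean of Vhl library A and control libraries B and C. It equals the mean of the 3 Vhl libraries in 28050 rows. For Igfbp5 that column of the authors' deposited table gives 10780 estimated counts, where the 3 Vhl libraries average 26610.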
